A study of Mus musculus with 8 samples.

Results

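Interleukin-6, interleukin-10, interleukin-21 and interleukin-27 each act on T cells through a pair of receptor chains that activate Janus kinases, which in turn phosphorylate the transcription factor STAT3. The 8 genes described here are the chains Il6ra, Il6st, Il10ra, Il10rb, Il21r and Il27ra, the transcription factor Stat3 and its feedback inhibitor Socs3, taken by symbol from a count table of 24421 genes. In follicular T cells IL-6 and IL-21 favour the follicular programme through STAT3, and in regulatory T cells STAT3 is known to be needed for restraint of TH17 responses. SOCS3 is induced by STAT3 and blocks signalling at the IL-6 receptor, closing the loop.

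The libraries hold mRNA of splenic follicular regulatory T (TFR) cells, a Foxp3+ lineage that enters B cell follicles and restrains antibody responses. There were 4 libraries from mice with Blimp1-flox and Foxp3-cre, called Blimp1-flox here, and 4 from wild-type (WT) mice. All mice had been challenged orally 2 times with peanut and the adjuvant cholera toxin, and cells were taken on day 36 by column enrichment of CD4+ T cells and a sort for Foxp3-YFP+ CXCR5+ PD1+ cells. Foxp3-cre is active in every Foxp3-expressing cell, so the deletion of Blimp1, a transcriptional repressor encoded by Prdm1, is not limited to TFR cells. The labels give no age, no zygosity of the floxed allele, no Cre status of the WT mice and no statement that libraries came from separate mice, so p-values measure the spread between libraries, which may be technical.

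Library totals ran from 16425538 to 27595939 counts in Blimp1-flox and from 22788722 to 26279365 in WT. Prdm1, the targeted gene, had 13.4, 7.53, 9.60 and 16.6 CPM (counts in proportion to the library total, with TMM scaling) in Blimp1-flox, against 39.1, 31.8, 65.1 and 71.0 CPM in WT. The T cell transcripts were present throughout, with Cd3e at 1344 ± 75.9 CPM in Blimp1-flox and 1410 ± 214 CPM in WT (SD, n = 4 each), and none of 11 T cell and TFR markers was at 0. Foxp3, whose exons overlap those of other genes, had 65.9 ± 8.14 CPM in Blimp1-flox and 87.0 ± 13.4 CPM in WT (SD, n = 4 each). On the first principal component WT 4 stood at -51.8 and the other libraries at -19.7 to 30.9, while Blimp1-flox 3 was at -50.8 on the second component and the others at -1.62 to 11.99. The summed level of 15 B cell markers, of which Fcer2a alone had any library at 0, was 218 to 294 CPM in Blimp1-flox, against 263 to 409 CPM in WT 1 to 3 and 988 CPM in WT 4. In bulk RNA fewer cells of a type and less RNA per cell cannot be told apart.

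All 8 members passed the filter on low counts and were tested among 12363 genes. None was called in edgeR at an adjusted p under 0.05, where 0.501% of all tested genes were called. The log2 fold changes of Blimp1-flox over WT were negative for 7 members and positive for 1, with a median of -0.11, against 0.00119 over all genes tested. At an unadjusted p under 0.05, 2 of the 8 members were lower, Il21r and Il10ra, where the share lower over all genes was 9.05%. DESeq2 and limma-voom with quality weights each called 1 member lower, Il21r, where they called 2.19% and 2.27% of the genes they tested lower. Groups did not overlap for 2 members, Il21r and Il27ra, both lower in Blimp1-flox, where 4.72% of all genes were lower without overlap.

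**Figure D1:**
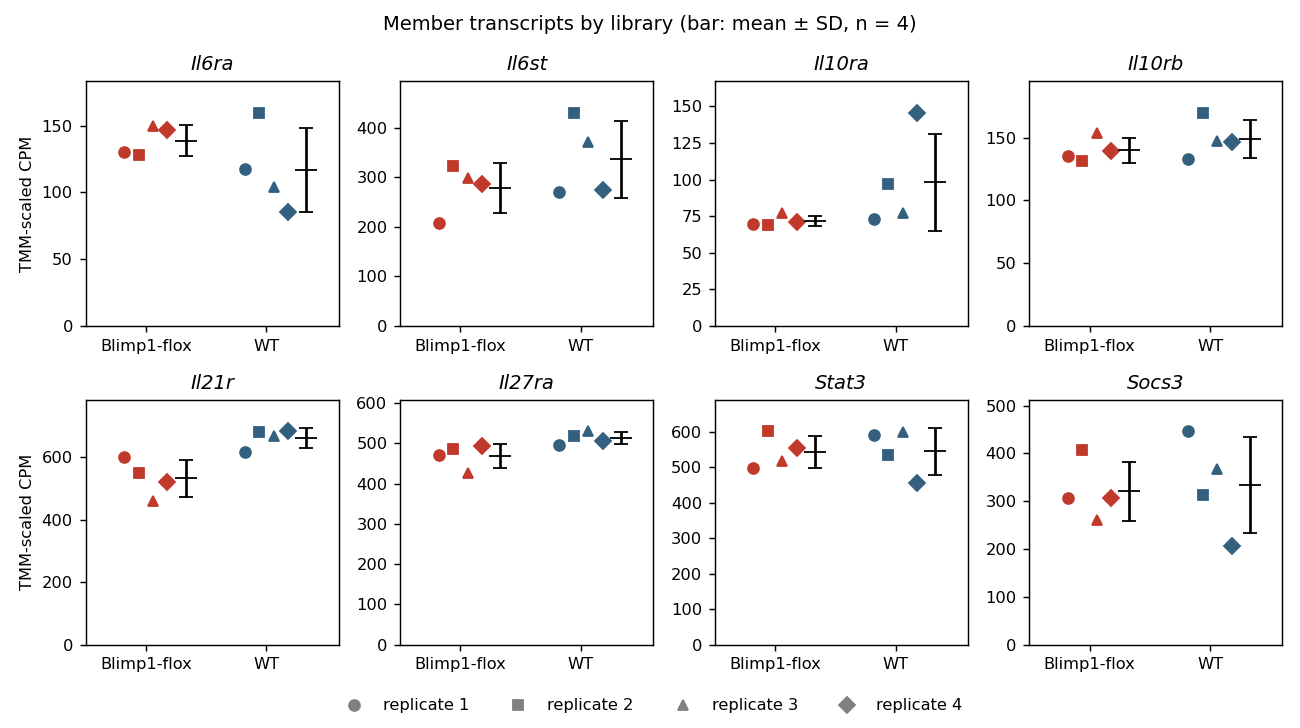
TMM-scaled CPM of the 8 members in each library, 4 Blimp1-flox (left, red) and 4 WT (right, blue), with marker shape for the replicate number and the mean ± SD beside the points. The groups are apart for Il21r and Il27ra, and WT 4 is the highest library for Il10ra and the lowest for Il6ra, Stat3 and Socs3.

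Compared per kilobase of exon, the members covered a wide span of levels without any being rare. Il21r was highest at 229 ± 31.5 CPM per kb over the 8 libraries (SD), followed by Il27ra at 185 ± 11.96, and Il21r lay above Il27ra in 8 of 8 libraries. Stat3 at 121 ± 11.8 and Socs3 at 120 ± 28.5 CPM per kb did not differ beyond their spread, with Stat3 the higher in 4 of 8 libraries. Il10rb followed at 78.1 ± 6.94, Il6st at 56.4 ± 12.4, Il6ra at 38.2 ± 7.45 and Il10ra at 24.3 ± 7.44 CPM per kb. The lowest member, Il10ra, still lay above 68.0% of all tested genes on this scale, and Il21r above 97.8%. Of the 7 neighbouring pairs in this order, Il27ra and Stat3 alone had ranges that did not meet, with the lowest Il27ra value at 161 and the highest Stat3 value at 134 CPM per kb.

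**Figure D2:**
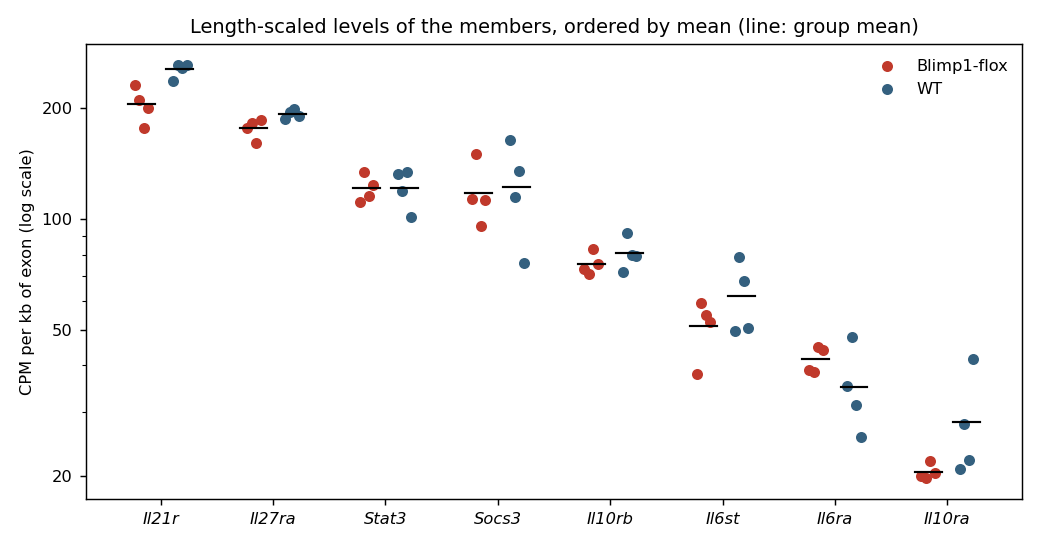
CPM per kb of exon on a log axis for each member and library, ordered from the highest mean to the lowest, Blimp1-flox in red and left of WT in blue, with lines at the group means. Il21r and Il27ra head the order and Il10ra, at 20 to 42 CPM per kb, ends it.

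Il21r, the specific chain of the IL-21 receptor, lies on chromosome 7 from 125603429 to 125633570 (mm10, plus strand, 9 exon intervals). It had 601, 548, 460 and 522 CPM in Blimp1-flox, against 616, 683, 669 and 683 CPM in WT. Every Blimp1-flox library was below every WT library, although Blimp1-flox 1 and WT 1 were close. The means were 533 ± 58.5 CPM in Blimp1-flox and 663 ± 31.7 CPM in WT (SD, n = 4 each), a log2 fold change of -0.32 ± 0.096 (SE) with a 95% interval from -0.52 to -0.11. The edgeR adjusted p was 0.167, so it did not pass. In DESeq2 it passed with -0.31 (adjusted p = 0.0493), and limma-voom gave -0.32 (adjusted p = 0.0332). Over 18 alternatives the adjusted p ran from 0.0332 to 0.966. Its partner Il2rg, the common gamma chain, had 1377 ± 84.4 CPM in Blimp1-flox and 1493 ± 121 CPM in WT (SD, n = 4 each; log2 fold change -0.12, edgeR adjusted p = 0.549). The within-library ratio of Il21r to Il2rg per kb was 0.230 to 0.272 in Blimp1-flox and 0.262 to 0.314 in WT, with an overlap.

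The tested gene on the lower-coordinate side of Il21r is Il4ra, from 125552282 to 125579474 on the same strand and 23954 bases away. Il4ra encodes the IL-4 receptor chain that also pairs with the common gamma chain. It was 1.51-fold lower in Blimp1-flox, with 90.1 ± 9.36 CPM against 136 ± 8.48 CPM in WT (SD, n = 4 each; edgeR adjusted p = 0.0203), and leaving out WT 2, Blimp1-flox 1 or Blimp1-flox 4 each ended that call (adjusted p up to 0.1004). On the other side of Il21r, Gtf3c1, a subunit of a general transcription factor of RNA polymerase III, gave -0.023 ± 0.14 on the log2 scale (SE; edgeR adjusted p = 0.954). These neighbours were looked up after the values were seen.

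Il27ra, the specific chain of the IL-27 receptor, lies on chromosome 8 from 84030286 to 84042575 (minus strand, 14 exon intervals). It had 470, 485, 427 and 493 CPM in Blimp1-flox, against 497, 518, 529 and 506 CPM in WT. The groups did not overlap, but Blimp1-flox 4 and WT 1 differed by only a few CPM. The log2 fold change was -0.13 ± 0.082 (SE), with a 95% interval from -0.31 to 0.049 (edgeR adjusted p = 0.459). Its coefficient of variation was 6.3% in Blimp1-flox and 2.77% in WT, the lowest of the 8 members in WT. The last exon of Il27ra shares 10 bases with Palm3 on the opposite strand, and the strand setting of the counting is not stated in the labels. Palm3 had 3.44 CPM in Blimp1-flox and 3.11 CPM in WT on average, far below Il27ra.

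Il6st encodes gp130, the signalling chain shared by the receptors of IL-6, IL-27, LIF and related cytokines, on chromosome 13 from 112464070 to 112506860 (plus strand). It had 207, 323, 299 and 286 CPM in Blimp1-flox, against 270, 430, 371 and 275 CPM in WT. Blimp1-flox 1 was the lowest library and WT 2 the highest, and the groups overlapped. The log2 fold change was -0.27 ± 0.17 (SE), with a 95% interval from -0.64 to 0.096 (edgeR adjusted p = 0.451). Without WT 2 it was -0.13 and without Blimp1-flox 1 it was -0.15, so either library moved it by more than 1.5 times.

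Il6ra encodes the IL-6 binding chain, on chromosome 3 from 89869324 to 89913162 (minus strand), and was the 1 member with a positive log2 fold change. It had 130, 128, 150 and 147 CPM in Blimp1-flox, against 117, 160, 104 and 85.3 CPM in WT. The Blimp1-flox libraries lay inside the WT range, which ran from WT 4 to WT 2. The log2 fold change was 0.25 ± 0.16 (SE), with a 95% interval from -0.093 to 0.60 (edgeR adjusted p = 0.456), and it was 0.13 without WT 4 and 0.44 without WT 2. The summed level of 15 myeloid and dendritic markers, cells that also express Il6ra, was 143, 96.3, 28.6 and 153 CPM in Blimp1-flox and 34.4 to 52.6 CPM in WT, and its part in the Il6ra level was not tested.

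Since the fold changes of Il6ra and Il6st had opposite signs, their ratio per kb within a library differed more than either gene. It was 1.02, 0.647, 0.820 and 0.838 in Blimp1-flox, against 0.709, 0.605, 0.460 and 0.506 in WT. The 3 highest ratios were Blimp1-flox libraries, but Blimp1-flox 2 lay below WT 1, so the groups overlapped. The mean log2 ratio was -0.28 ± 0.27 in Blimp1-flox and -0.83 ± 0.28 in WT (SD, n = 4 each), a difference of 0.55, or 0.50 without WT 4 and Blimp1-flox 3. The ratio of Il27ra to Il6st was 2.93 to 4.65 in Blimp1-flox and 2.48 to 3.78 in WT and overlapped as well. A ratio shows unequal levels of 2 transcripts and not which of them changed.

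**Figure D3:**
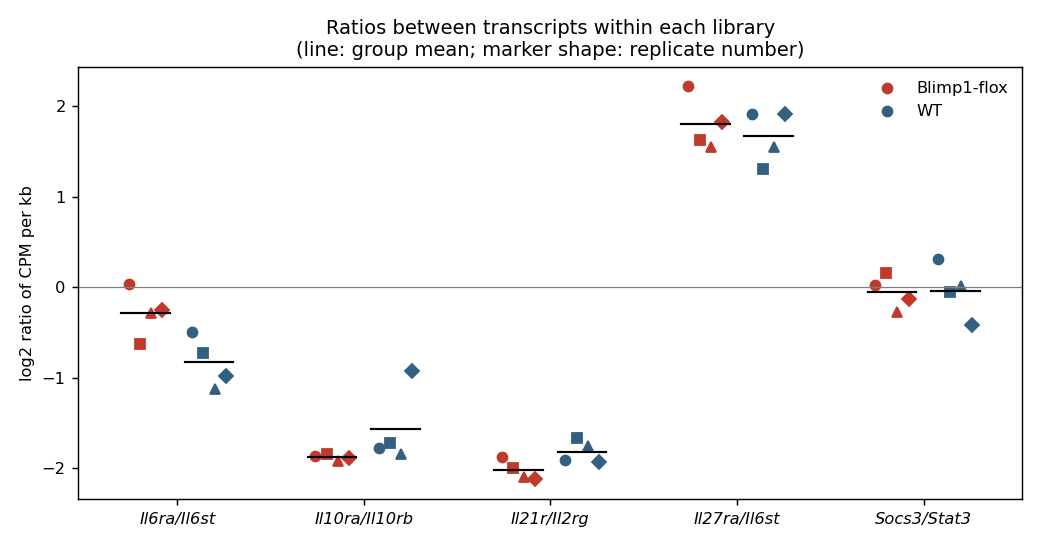
Log2 ratio of CPM per kb between 2 transcripts in each library for 5 pairs, Blimp1-flox in red and left of WT in blue, with lines at the group means and marker shape for the replicate number. Il6ra to Il6st is -0.28 on average in Blimp1-flox and -0.83 in WT, and for Il10ra to Il10rb WT 4 stands at -0.93, above the other libraries.

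Il10ra encodes the ligand-binding chain of the IL-10 receptor, on chromosome 9 from 45253839 to 45269146 (minus strand). It had 69.8, 69.1, 76.9 and 71.1 CPM in Blimp1-flox, against 73.3, 96.8, 77.5 and 145 CPM in WT. Blimp1-flox libraries were tightly grouped, with a coefficient of variation of 4.94%, against 33.7% in WT, where WT 4 stood far above the rest. The log2 fold change was -0.45 ± 0.18 (SE), with a 95% interval from -0.86 to -0.053 (edgeR adjusted p = 0.262), the most negative of the members. Without WT 4 it was -0.20 (adjusted p = 0.464). WT 4 also had the highest level of 14 of the 15 B cell markers, and B cells express Il10ra. When the mean log2 CPM of these markers entered the model as a covariate, Il10ra gave 0.15 and Il6ra -0.30 on the log2 scale, both turned in sign. Genotype and that covariate had 65.2% of their variance in common, so the part of B cell RNA and of genotype in these values cannot be told apart.

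**Figure D4:**
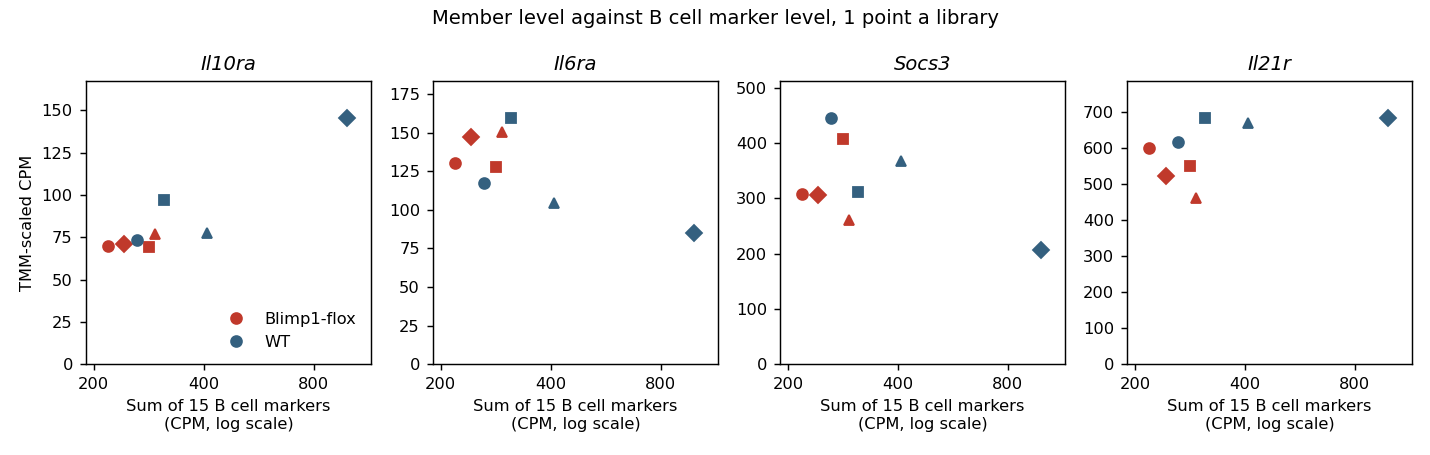
TMM-scaled CPM of Il10ra, Il6ra, Socs3 and Il21r against the summed CPM of 15 B cell markers on a log axis, with 1 point for each Blimp1-flox (red) and WT (blue) library and marker shape for the replicate number. WT 4, at 988 CPM of B cell markers, is the highest library for Il10ra and the lowest for Il6ra and Socs3, while for Il21r it stands with WT 2 and WT 3.

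Il10rb, the chain that the IL-10 receptor shares with the receptors of IL-22 and interferon lambda, lies on chromosome 16 from 91406235 to 91425834 (plus strand). It had 135, 131, 153 and 139 CPM in Blimp1-flox, against 133, 170, 147 and 147 CPM in WT. The groups overlapped widely, and the log2 fold change was -0.094 ± 0.096 (SE) with a 95% interval from -0.30 to 0.11 (edgeR adjusted p = 0.663). Per kb, Il10ra stood at 0.265 to 0.279 of Il10rb in Blimp1-flox, against 0.278 to 0.302 in WT 1 to 3 and 0.525 in WT 4. Its neighbour Ifnar2, a chain of the type I interferon receptor, ends 647 bases before Il10rb starts. Ifnar2 was also among the 2 genes whose pattern over the 8 libraries was nearest to that of Il10rb (root mean square difference 0.043 in mean-centred log2 CPM). Il10rb itself varied little, with an SD of 0.125 in log2 CPM over the 8 libraries, so this nearness need not mean a shared pattern.

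Stat3 lies on chromosome 11 from 100886810 to 100939511 (minus strand, 26 exon intervals). It had 499, 601, 518 and 554 CPM in Blimp1-flox, against 592, 534, 600 and 455 CPM in WT. The means of 543 ± 44.9 CPM in Blimp1-flox and 545 ± 67.1 CPM in WT (SD, n = 4 each) differed by less than the spread within either group. The log2 fold change was -0.0045 ± 0.11 (SE; edgeR adjusted p = 0.986). Its 95% interval from -0.23 to 0.22 bounds the difference that these libraries leave possible under the fit on genotype alone. Of all tested genes, 98.7% had a larger absolute log2 fold change. Stat5a, the neighbour 1640 bases away and a STAT activated by IL-2, gave 0.099 ± 0.091 on the log2 scale (SE; edgeR adjusted p = 0.618). Counts of Stat3 mRNA say nothing of its phosphorylation.

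Socs3 lies on the same chromosome from 117966087 to 117969366 (minus strand, 2 exon intervals). It had 307, 407, 260 and 306 CPM in Blimp1-flox, against 446, 312, 367 and 206 CPM in WT. The WT libraries spanned a wider range than the Blimp1-flox libraries and enclosed them. The log2 fold change was -0.055 ± 0.21 (SE), with a 95% interval from -0.53 to 0.42 (edgeR adjusted p = 0.925), and the sign turned to 0.12 without WT 1 and to 0.033 without Blimp1-flox 3. The within-library ratio of Socs3 to Stat3 per kb was 0.827 to 1.12 in Blimp1-flox and 0.748 to 1.24 in WT.

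Promoter windows are shown for Socs3 and Il6st because these were the matched members that hold a letter match to STAT or Blimp1 binding sequences. RefSeq sequences (GRCm38.p6) of the 250 bases before the start site were matched for 5 members, Il6ra, Il6st, Il21r, Stat3 and Socs3. The motifs searched were TTCNNNGAA for STAT factors, which reads the same on both strands, and GAAAGT for Blimp1, on both strands, and capitals mark the matches. The Socs3 window is chr11:117969367-117969616 on the minus strand and the Il6st window is chr13:112463820-112464069 on the plus strand.
Socs3: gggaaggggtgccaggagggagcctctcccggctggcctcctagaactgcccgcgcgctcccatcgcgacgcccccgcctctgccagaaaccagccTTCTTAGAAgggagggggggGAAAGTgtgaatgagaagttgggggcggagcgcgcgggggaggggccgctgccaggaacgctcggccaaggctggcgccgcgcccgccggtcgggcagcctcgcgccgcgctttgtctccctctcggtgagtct
Il6st: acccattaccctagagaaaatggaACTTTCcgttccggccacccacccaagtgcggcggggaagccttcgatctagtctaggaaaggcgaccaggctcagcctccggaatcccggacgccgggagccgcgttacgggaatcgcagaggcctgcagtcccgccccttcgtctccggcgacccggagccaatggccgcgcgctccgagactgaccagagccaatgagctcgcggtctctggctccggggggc
In Socs3 the STAT motif starts at position -154 from the start site and the Blimp1 letters at -134, without overlap. In Il6st the Blimp1 letters lie on the reverse strand from position -226. Over 32851 promoter windows of 250 bases, 7.02% held the STAT motif and 12.3% the Blimp1 letters, so the matches are a description of these windows and not evidence of binding.

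Fold changes of the ligands covered a wider range than those of the 6 member receptor chains. Il10, whose product acts through Il10ra and Il10rb, was 7.06-fold lower in Blimp1-flox, with 7.42, 10.6, 17.9 and 6.43 CPM, against 68.8, 70.5, 63.6 and 98.6 CPM in WT (edgeR adjusted p = 0.00502). It was the 1 called gene among the 7 tested of 13 listed ligands, where 0.243% of all tested genes were called lower. Il10 passed without each library in turn. With the mean log2 CPM of the B cell markers as a covariate Il10 gave -2.37 (edgeR adjusted p = 0.392), and in that fit Il23r, Il4ra, Il2ra, Socs2 and Ccr6, called without it, did not pass either (adjusted p 0.543 to 0.966). No gene was called lower in that fit, so the call of Prdm1, the targeted gene, was lost as well. A lost call in that fit therefore does not show that a gene is unchanged. Il21 had 65.1, 61.3, 88.7 and 83.6 CPM in Blimp1-flox, against 52.7, 41.3, 69.1 and 38.0 CPM in WT. Its log2 fold change of 0.57 ± 0.19 (SE) did not pass (edgeR adjusted p = 0.183), and WT 3 overlapped the Blimp1-flox libraries. Lif, a gp130 ligand chosen after its values were seen, had 20.2 to 30.2 CPM in Blimp1-flox and 13.1 to 19.0 CPM in WT. Its log2 fold change was 0.71 ± 0.16 (SE; edgeR adjusted p = 0.0807; DESeq2 0.00317; limma-voom 0.00873).

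Il6 and Il27, ligands supplied mainly by other cells, were near the limit of the counts. Il6 had 0.758 ± 0.150 CPM in Blimp1-flox and 0.791 ± 0.313 CPM in WT (SD, n = 4 each). Il27 had 1 count in Blimp1-flox 4 and none in the other libraries. Ebi3, the partner subunit of IL-27, had 30.3 to 38.1 CPM in Blimp1-flox and 28.4 to 67.0 CPM in WT, where WT 4 was highest (edgeR adjusted p = 0.498). Il22, which signals through Il10rb and was chosen after its values were seen, did not pass the filter on low counts. It had 33, 8, 17 and 56 counts in Blimp1-flox, against 4, 1, 0 and 4 counts in WT, while its specific receptor chain Il22ra1 had no count in any library.

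**Figure D5:**
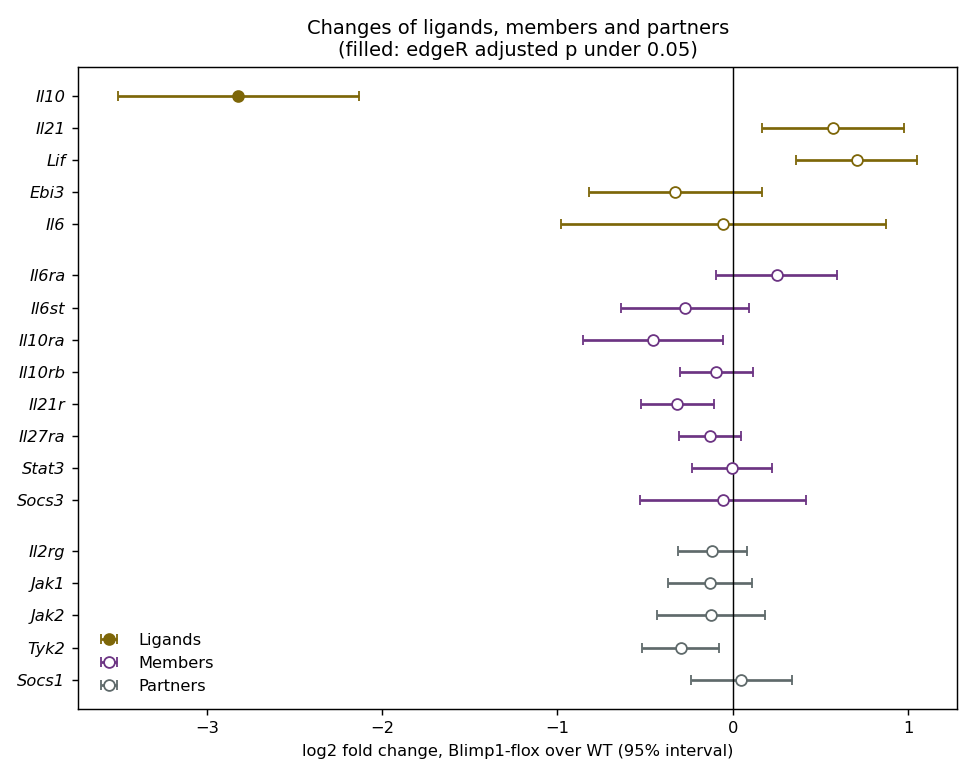
Log2 fold change of Blimp1-flox over WT with its 95% interval for 5 ligands, the 8 members and 5 partner genes, with filled points for an edgeR adjusted p under 0.05. Il10 at -2.82 is the 1 filled point, and the members lie between -0.45 and 0.25.

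None of 10 Janus kinase and other STAT genes was called in edgeR, and their median log2 fold change was -0.11. At an unadjusted p under 0.05 there were 2, Tyk2 and Stat2, where 16.2% of all tested genes reached it in either direction. Stat2, a STAT of type I interferon signalling chosen after its values were seen, had the most negative fold change of the list, with 56.0 ± 9.57 CPM in Blimp1-flox and 80.6 ± 18.3 CPM in WT (SD, n = 4 each; log2 fold change -0.52, edgeR adjusted p = 0.182). Jak1, used by all 4 receptors, had 1244 ± 176 CPM in Blimp1-flox and 1361 ± 110 CPM in WT (SD, n = 4 each; edgeR adjusted p = 0.589). Tyk2, which binds Il10rb among other chains, had 207, 273, 243 and 221 CPM in Blimp1-flox, against 270, 320, 290 and 279 CPM in WT. Blimp1-flox 2 alone reached into the WT range. Its log2 fold change was -0.30 ± 0.10 (SE; edgeR adjusted p = 0.197; limma-voom 0.0423). Jak2 gave -0.12 on the log2 scale (edgeR adjusted p = 0.705).

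Of 25 related receptor genes, 17 were tested, 1 was called higher, 2 lower and 14 were not called, where 0.259% of all tested genes were called higher and 0.243% lower. The higher gene was Il23r, a STAT3-coupled receptor chain, with 9.18, 4.78, 4.03 and 11.1 CPM in Blimp1-flox, against 0.848, 0.562, 0.483 and 0.560 CPM in WT (edgeR adjusted p = 0.00112). The lower genes were Il4ra, described above, and Il2ra. Il2ra, the IL-2 receptor alpha chain, had 39.0 ± 13.2 CPM in Blimp1-flox and 103 ± 20.04 CPM in WT (SD, n = 4 each; edgeR adjusted p = 0.0311). That call ended when WT 2, Blimp1-flox 1, 2 or 4 was left out (adjusted p up to 0.105). Among 17 negative regulators 1 was called, Socs2, at 2.01 ± 0.514 CPM in Blimp1-flox and 6.44 ± 2.78 CPM in WT (SD, n = 4 each; edgeR adjusted p = 0.0418). Its call held without WT 1 or Blimp1-flox 3 and was lost in the 6 other fits that left out a library (adjusted p up to 0.170) and with the replicate number as a block (adjusted p = 0.0887). Socs1, which like Socs3 inhibits Janus kinases directly, gave 0.049 ± 0.13 on the log2 scale (SE; edgeR adjusted p = 0.888). Cish, a STAT5-induced inhibitor chosen after its values were seen, had 44.7 to 92.9 CPM in Blimp1-flox and 108 to 181 CPM in WT (edgeR adjusted p = 0.0820; DESeq2 1.2e-04).

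Genes that STAT3 is known to induce in CD4+ T cells did not move one way. Of 21 listed, 19 were tested, 2 were called higher, 1 lower and 16 were not called, with a median log2 fold change of 0.048. Over all tested genes 0.259% were called higher and 0.243% lower. The called genes were Il23r, Il10 and Ccr6, a chemokine receptor of TH17 cells. Ccr6 had 110, 47.9, 70.6 and 89.9 CPM in Blimp1-flox, against 22.6, 33.0, 24.8 and 35.9 CPM in WT (edgeR adjusted p = 0.0334). That call ended when WT 2, WT 3, Blimp1-flox 1 or Blimp1-flox 4 was left out (adjusted p up to 0.109), with the replicate number as a block (adjusted p = 0.0887) and without a filter on low counts (adjusted p = 0.0604).

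Patterns over the 8 libraries differed between members, measured as the root mean square difference of mean-centred log2 CPM from each of 11617 genes. The SD of a member's own log2 CPM ran from 0.096 for Il27ra to 0.37 for Il10ra. A small difference from a member that varied little need not mean a shared pattern. The nearest genes were Calu (0.039) and Pdia6 (0.049) for Stat3, Vps18 (0.075) and Ube2j1 (0.13) for Socs3, and Ppp4r2 (0.11) and Rnf144a (0.11) for Il6ra. For Il21r they were Mkl2 (0.052) and Gimap3 (0.059), a lymphocyte GTPase with 1418 ± 74.6 CPM in Blimp1-flox and 1748 ± 81.5 CPM in WT (SD, n = 4 each). For Il10ra they were Bod1l (0.10) and Lztfl1 (0.10), for Il6st Ift81 (0.073) and Sntb1 (0.079), for Il27ra Pggt1b (0.039) and Trim14 (0.040), and for Il10rb Stk11ip (0.040) besides Ifnar2. No member was among the 2 nearest genes of another member.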

How the data were processed

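STAR 2.5.2b with mm10, and featureCounts from Subread 1.5.1, made the gene counts, per the submitters' processing notes. The annotation and the strand setting of that step are not stated. The authors deposited unnormalized counts and the summed exon length of each gene, which was used for levels per kb. The members and lists were chosen with earlier results of these data known. Genes were filtered with filterByExpr of edgeR 4.0.16 in R 4.3.3, scaled by TMM (factors 0.976 to 1.02) and compared with the robust quasi-likelihood F test on genotype alone, with Benjamini-Hochberg adjustment over 12363 genes. Standard errors come from the F statistic and 95% intervals from its degrees of freedom. The biological coefficient of variation was 0.192. DESeq2 1.42.0 and limma 3.58.1 (voom with quality weights) were alternatives. On counts simulated for Blimp1-flox against WT with 12363 genes, 43.3% of genes changed 1.5-fold and 71.7% of those changed 2-fold were recovered. The genes named are the members, fixed partners, called list genes (at most 4 a list) and the 2 nearest genes in pattern; exceptions are marked in the text. Some genes under this rule are not reported here. Log2 CPM used a prior count of 2. Between replicates of a group the variance was 16.7 to 68.3 times the sampling variance, so no library repeated another.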

Additional observations from a re-analysis of the deposited data

Results flagged for a closer look

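The ratio of Il10ra to Il10rb per kb in WT was set apart by a single library. WT 4 had a log2 ratio of -0.93, and its gap to the next WT library was 0.869 of the whole range of the group, above Dixon's 95% critical value for 4 samples. It was 1 of 26 groups of 4 values examined in this way, of which chance marks about 1 in 20. Without WT 4 and Blimp1-flox 3 the difference in mean log2 ratio between Blimp1-flox and WT was -0.084, against -0.31 with all libraries. WT 4 is also the library with the highest B cell marker sum, at 988 CPM, and the part of that RNA in the ratio was not tested.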

How the results depend on the processing

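The count of members called was 0 in edgeR under every scaling, filter, covariate and left-out library, and 1 (lower) in DESeq2 and in limma-voom, where Il21r had log2 fold changes of -0.31 and -0.32. Over all genes edgeR called 32 higher and 30 lower. DESeq2 called 193 higher and 260 lower, limma-voom 213 and 281, the threshold of 0.1 gave 81 and 101, and leaving out WT 4 and Blimp1-flox 3 gave 91 and 66. Without a filter on low counts 46 were lower. With the B cell score in the model 1 was higher and 0 lower, with 641 genes at an unadjusted p under 0.05. Leaving out each library gave 13 to 58 higher and 7 to 82 lower, the fewest without Blimp1-flox 1 and the most higher without Blimp1-flox 3 and lower without WT 1. In the fit with the score the log2 fold changes of Il10ra (0.15), Il6ra (-0.30), Ebi3 (0.36), Il2rg (0.037) and Socs1 (-0.15) turned in sign. Genes near 0 turned in other fits, the cause not tested. Stat3 was 0.0039 with upper-quartile scaling, 4.3e-04 with a replicate block and -0.082 to 0.042 with a library left out. Socs1 was -0.020 in limma-voom, -3.3e-04 without WT 4 and Blimp1-flox 3 and -0.044 to 0.15 with a library left out, Socs3 -0.23 to 0.12 and Il6 -0.23 to 0.20. Il21r, Il6st, Il27ra and Il10rb kept a negative sign in all 18 alternatives. Same-numbered libraries deviated together in 2 of 4 pairs (correlations -0.11 to 0.15), which does not settle whether the numbers pair the samples. The replicate block changed no call on a member but ended those of Ccr6 and Socs2. In the simulation a change of 1.5-fold was often missed, but its changed genes were drawn at random from all tested genes, at any level. That share is therefore not specific to the members. Intervals of the members, rather than missed thresholds, bound what may differ, but only under the fit on genotype alone. In the fit with the B cell score, Il10ra (0.15) and Il6ra (-0.30) lay outside those intervals.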
